A study of Mus musculus with 9 samples.

Results

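The genes examined were the Sprouty genes Spry1, Spry2 and Spry4 and the Spred genes Spred1, Spred2 and Spred3, which encode intracellular inhibitors of the Ras to ERK (MAP kinase) cascade. They were chosen by name, and all 6 were found among the 19938 genes that carried a probe with a single gene symbol. Where a gene had several such probes, the brightest on average was used; only Spred2 had more than 1. Spry3, the remaining mouse Sprouty gene, is described beside them as a relative. Values came from 9 Affymetrix whole-transcript arrays of the mouse Leydig tumour line MA-10, which turns to steroid production when cyclic AMP (cAMP) rises. The arrays fell into 3 groups of 3 each: 10 µM forskolin together with 1 mM AICAR, 10 µM forskolin alone, and control. The treatment field and protocol give the control as DMSO, the vehicle, but the sample titles call it untreated, and the labels do not settle which holds. All were kept for 1.5 h without serum after growth in 15% horse serum. Forskolin raises cAMP by switching on adenylyl cyclase; AICAR is taken up and phosphorylated to a compound that imitates AMP and turns on AMPK, an energy-sensing kinase. AICAR was measured only on top of forskolin; AICAR by itself was not analysed here. MA-10 is a single tumour line. The labels do not state whether the replicates came from different cultures; the p-values cover no more than the spread among these 9 arrays, which may be technical.

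Growth factor receptors switch on Ras, which activates the kinases Raf, MEK and ERK in turn. Sprouty proteins are classically induced by ERK activity and then restrain the same pathway at the membrane, by binding adaptors such as Grb2 and Cbl or by acting on Raf. Spred proteins share the cysteine-rich C-terminal domain of the Sproutys, carry in addition an N-terminal EVH1 domain, and bring the Ras GTPase-activating protein neurofibromin to the membrane. In Leydig cells luteinizing hormone signals through cAMP, and part of that signal reaches ERK. The comparisons here ask whether transcripts of these inhibitors followed the cAMP stimulus, and whether AICAR altered them.

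The starts of Spry1 and Spred2 are shown because these genes had the largest differences upwards and downwards among the 6 when AICAR was added to forskolin. Each stretch is the 250 bases before the start of the gene in the RefSeq annotation of assembly GRCm38.p6, on the plus strand, at chr3:37639697-37639946 for Spry1 and chr11:19924192-19924441 for Spred2. Capitals mark a half-site of the cAMP response element, not the full element.
Spry1: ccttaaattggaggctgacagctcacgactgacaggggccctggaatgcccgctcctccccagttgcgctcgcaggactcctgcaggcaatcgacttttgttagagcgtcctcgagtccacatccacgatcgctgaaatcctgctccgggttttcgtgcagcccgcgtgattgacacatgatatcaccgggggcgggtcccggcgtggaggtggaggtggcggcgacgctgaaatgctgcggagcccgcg
Spred2: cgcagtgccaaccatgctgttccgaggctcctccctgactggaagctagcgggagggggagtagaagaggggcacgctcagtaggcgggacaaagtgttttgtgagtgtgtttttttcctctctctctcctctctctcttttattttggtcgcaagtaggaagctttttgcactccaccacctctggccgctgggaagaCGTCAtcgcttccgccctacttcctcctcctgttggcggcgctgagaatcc
RefSeq windows from 250 bases before to 50 bases after the start were searched for 5 members, Spry1, Spry2, Spred1, Spred2 and Spred3, on both strands. The full cAMP response element TGACGTCA was in none of the 5 windows, and it occurs in 1.79% of all 32851 promoter windows. Its half-site TGACG, which lies within the full element, was found once, on the reverse strand at position -51 from the Spred2 start, and it occurs in 20.8% of all windows. The AP-1 motif TGANTCA was in none of the 5 (7.81% of all windows). The ETS motif CCGGAA was found once, beginning 33 bases after the Spry2 start (14.9% of all windows).

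The deposited values were log2 expression values, and the array medians lay between 7.14 and 7.19. Detection calls were not used here, so whether a dim probe stood above background is unknown. Once each group's mean was removed, 46.0% of the remaining sum of squares lay along 1 component, which set AICAR replicate 1 (score -0.596) apart from AICAR replicate 3 (0.561). The component ran through the other groups too. Control replicate 3 (-0.313) and forskolin replicate 3 (-0.338) lay on the side of AICAR replicate 1, and control replicate 1 (0.202) and forskolin replicate 1 (0.227) on the other. Member values with AICAR are also given without AICAR replicate 1 where this changes a call. Of the Leydig cell markers, 7 were measured (Star, Cyp11a1, Cyp17a1, Hsd3b1, Hsd3b6, Nr5a1 and Gata4), with gene means between 8.66 and 11.95, whereas Lhcgr and Insl3 were not analysed here. Gene means of the other lists ran from 4.16 to 7.32 for germ cells, 4.81 to 7.68 for macrophages, 5.51 to 7.92 for peritubular cells and fibroblasts, 6.38 to 11.71 (Clu) for Sertoli cells and 4.58 to 11.96 (Cdh5) for endothelial cells, so single Sertoli and endothelial markers were as bright as the Leydig markers. When AICAR was added to forskolin, 3 of the 7 Leydig markers (Star, Hsd3b1 and Hsd3b6), 1 of 6 Sertoli markers (Sox9) and 1 of 7 macrophage markers (Cd68) were called lower, and none of the 7 germ cell, 7 peritubular and fibroblast or 7 endothelial markers was called in limma (2, 3 and 0 at an unadjusted p under 0.05). Of all genes 0.978% were called higher and 4.12% lower in this comparison, and 24.1% had an unadjusted p under 0.05. On the log2 scale the summed Leydig list was 13.87 to 13.95 with AICAR and 14.09 to 14.13 with forskolin alone, the Sertoli list 12.17 to 12.19 and 12.23 to 12.25, and the macrophage list 8.72 to 8.92 and 8.94 to 8.97. The summed germ cell list was 8.98 to 9.04 with AICAR and 8.90 to 8.98 with forskolin alone, the peritubular and fibroblast list 9.81 to 10.00 and 9.72 to 9.82, and the endothelial list 12.14 to 12.15 and 12.08 to 12.12. These sums rest mostly on the brightest genes of a list. The median log2 difference was -0.25 for Leydig, -0.01 for Sertoli and 0.10 for macrophage markers. It was 0.08 for germ cell, 0.14 for peritubular and fibroblast and 0.05 for endothelial markers, against 0.02 over all genes. No marker's mean was under 4.16, and the part of these markers in the results below was not tested.

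With forskolin alone none of the 6 genes passed the test. A gene was called where limma's moderated test, with Benjamini-Hochberg adjustment over all 19938 genes, gave an adjusted p under 0.05. Of all genes 0.692% were called in this comparison, 0.497% higher and 0.196% lower, which is 99 and 39 genes (86 and 61 with arrays centred on their medians). Spred1 was the 1 member with an unadjusted p under 0.05, a value reached by 7.27% of all genes. Among 14 measured cAMP target genes 7 rose and 1 fell, with log2 differences of 2.64 (SE 0.05) for the nuclear receptor gene Nr4a1, 2.60 (SE 0.07) for the kinase gene Sik1 and 2.34 (SE 0.07) for Nr4a3 (adjusted p = 2.39e-08, 7.89e-08 and 1.62e-07). With AICAR against forskolin alone 4 of the 14 fell, with log2 differences of -2.05 for Star, the cholesterol transport gene, and -1.02 for Nr4a3 (adjusted p = 5.21e-07 and 7.82e-05). For forskolin the median log2 difference was 0.40 over the cAMP target genes, 0.05 over the 6 members and 0.00 over all genes. The cAMP target list was chosen with earlier results of these data known, so its median is not an independent measure.

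**Figure D1:**
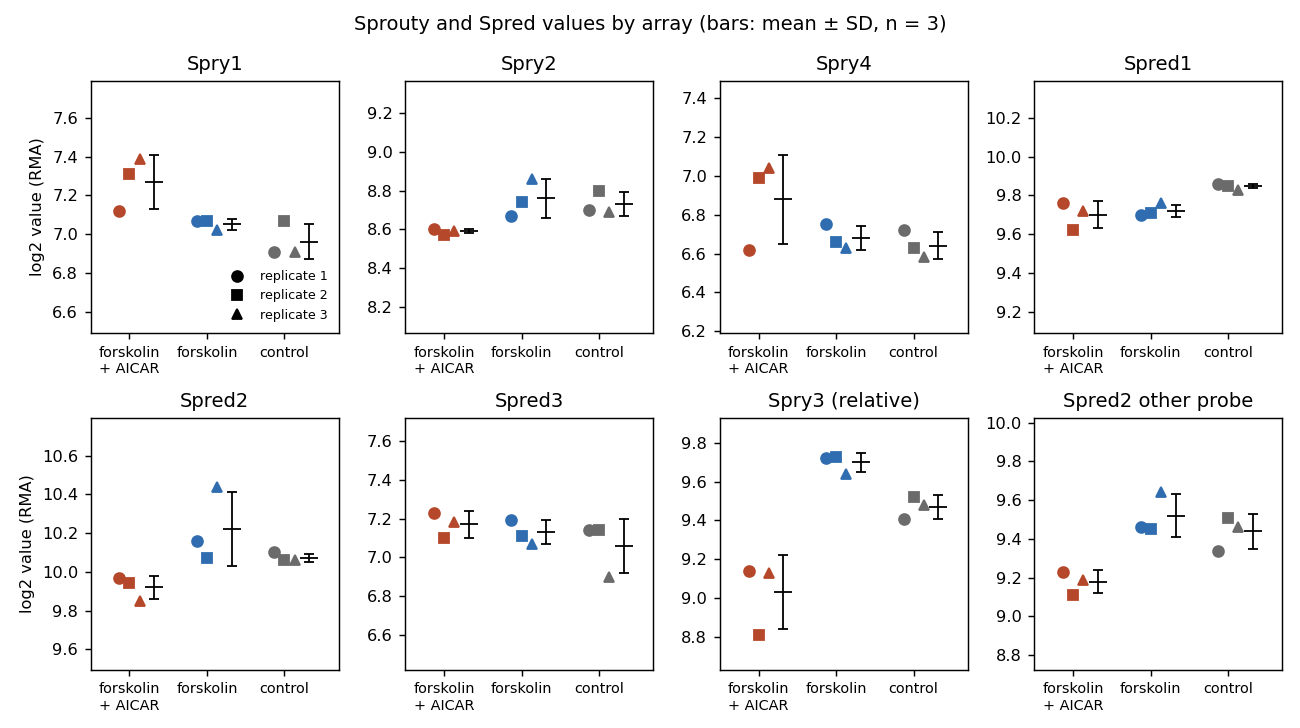
Log2 values of the 6 Sprouty and Spred genes, of their relative Spry3 and of the second Spred2 probe on each of the 9 arrays, with the mean and SD of each group (n = 3). Every panel spans the same log2 range; Spry3 fell to a mean of 9.03 with AICAR against 9.70 with forskolin alone, and the AICAR arrays of Spry4 are split between 6.62 and 6.99 to 7.04.

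Spry1, whose product limits signalling by the receptor Ret in kidney development, had log2 values of 7.07, 7.07 and 7.02 with forskolin, against 6.91, 7.07 and 6.91 in control. Control replicate 2 reached the forskolin values, and the log2 difference of 0.09 (SE 0.07, adjusted p = 0.897) was not called. Spry2, which binds the ubiquitin ligase Cbl, had 8.67, 8.74 and 8.86 with forskolin and 8.70, 8.80 and 8.69 in control, overlapping throughout (0.03, SE 0.05, adjusted p = 0.971). Spry4, which inhibits Raf activation downstream of growth factor receptors, had 6.75, 6.66 and 6.63 with forskolin and 6.72, 6.63 and 6.58 in control (0.04, SE 0.10, adjusted p = 0.980). The 3 Sprouty genes thus stayed within the range of their controls or close to it.

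Spred1, the gene mutated in the human developmental disorder Legius syndrome, had 9.70, 9.71 and 9.76 with forskolin, against 9.86, 9.85 and 9.83 in control. All 3 forskolin arrays lay below all 3 controls, as in 7.13% of all genes, and the log2 difference was -0.12 (SE 0.04, unadjusted p = 0.0166, adjusted p = 0.461). Spred2 had 10.16, 10.07 and 10.44 with forskolin and 10.10, 10.06 and 10.06 in control, where forskolin replicates 1 and 3 lay above the controls, replicate 3 by the most (0.15, SE 0.08, adjusted p = 0.793). Without that replicate the difference was 0.04. Spred3, a weaker inhibitor of ERK than its relatives, had 7.19, 7.11 and 7.07 with forskolin and 7.14, 7.14 and 6.90 in control (0.06, SE 0.07, adjusted p = 0.936).

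The 95% confidence intervals of this fit give limits for the difference in each probe value with forskolin, taken 1 gene at a time. The widest upper limit of the 95% confidence intervals was a log2 difference of 0.34, or 1.26-fold, for Spred2, and the lowest limit was -0.22, or 0.859 of control, for Spred1. A change of 1.5-fold was therefore outside the interval of each member's probe value in this fit. For the dim Spry1, Spry4 and Spred3, whose levels over background are unknown, the intervals may not bound the change of the RNA. For comparison, the interval of Spry3 ran from 0.04 to 0.41 (log2 difference 0.23, SE 0.08, adjusted p = 0.508), with 9.72, 9.73 and 9.64 with forskolin and 9.41, 9.52 and 9.48 in control; the groups did not overlap, as in 6.85% of all genes in this direction, but the gene was not called.

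**Figure D2:**
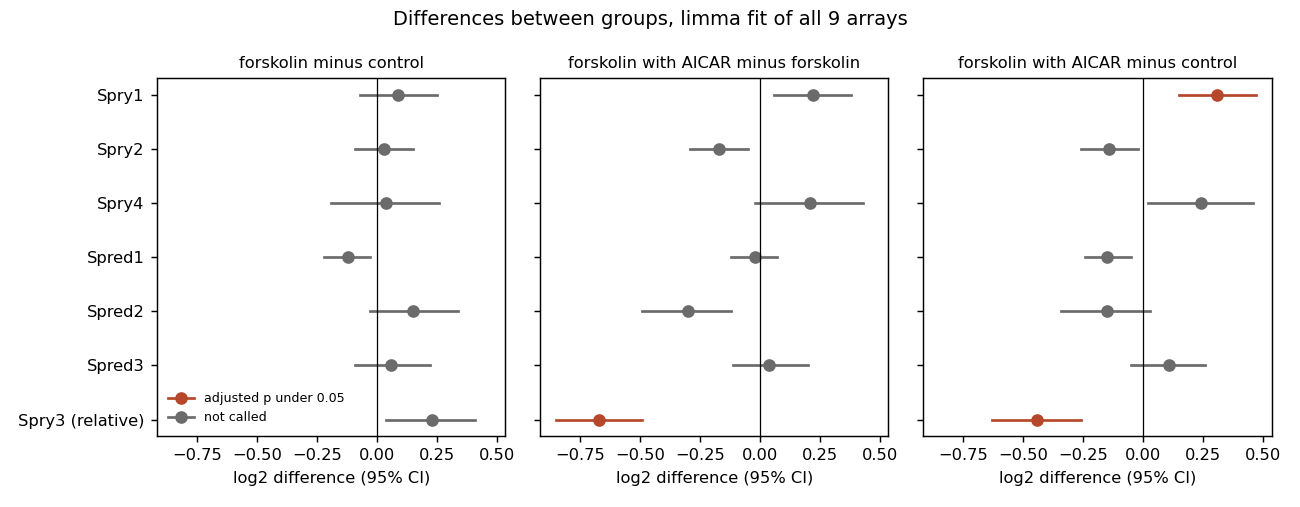
Log2 differences (points) with 95% confidence intervals (lines) of the 6 genes and Spry3 in the 3 comparisons, from the limma fit of all 9 arrays. The members called are 0, 0 and 1 from left to right (Spry1 in the last panel), and Spry3 lies at -0.67 and -0.44 in the AICAR panels.

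When AICAR was added to forskolin, Spry1 and Spry4 were higher and Spry2 and Spred2 lower in their group means, by log2 differences of 0.17 to 0.30 in size, but in limma's test none of the 6 was called, against 5.10% of all genes (0.978% higher and 4.12% lower). That split, 195 genes higher and 822 lower, was 454 and 638 with quantile normalization and 359 and 655 with arrays centred on their medians. Spry1, Spry2 and Spred2 had an unadjusted p under 0.05, and the same 3 genes did not overlap between the groups; these shares were 24.1% and 23.6% of all genes. Spry1 lay higher without overlap, as in 11.5% of all genes, and Spry2 and Spred2 lower, as in 12.2%. The median log2 difference of the members was 0.01, and that of all genes 0.02. The relative Spry3 fell and was the only Sprouty or Spred gene called.

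Spry3 had log2 values of 9.14, 8.81 and 9.13 with AICAR, against 9.72, 9.73 and 9.64 with forskolin alone. It was lower on all 3 AICAR arrays than on any other array of the study, with AICAR replicate 2 lowest. The log2 difference was -0.67 (SE 0.08, adjusted p = 0.0019), a 1.59-fold fall, and it was called in all 24 alternative analyses, at -0.72 to -0.56 when single arrays were left out. Without AICAR replicate 1 it was -0.72 (adjusted p = 0.00229).

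Spred2 was the member with the largest difference. Its values were 9.97, 9.94 and 9.85 with AICAR and 10.16, 10.07 and 10.44 with forskolin alone, without overlap, and the log2 difference was -0.30 (SE 0.08, 95% confidence interval -0.49 to -0.12, adjusted p = 0.0685). The height of forskolin replicate 3 contributed to this size, since the difference was -0.20 without it (adjusted p = 0.0955). It passed the test at -0.38 (adjusted p = 0.0432) once forskolin replicate 2 was removed, and at -0.33 (adjusted p = 0.0485) once AICAR replicate 1 was. Those fits called 575 and 3324 genes in all, against 1017 with every array. The second, dimmer probe of Spred2 had 9.23, 9.11 and 9.19 with AICAR and 9.46, 9.45 and 9.64 with forskolin alone. That probe differed by -0.34 (SE 0.06) and was called when every probe was tested on its own (adjusted p = 0.018 over 21789 probes), as was the mean of both probes (-0.32, adjusted p = 0.0256). The probes of Spred2 thus gave the same direction and lay on either side of the threshold.

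Spry2 was low on every AICAR array, at 8.60, 8.57 and 8.59, against 8.67, 8.74 and 8.86 with forskolin alone. The log2 difference was -0.17 (SE 0.05, 95% confidence interval -0.29 to -0.05, adjusted p = 0.108), and leaving out single arrays moved it between -0.21 and -0.12 without a call. With quantile normalization it was -0.09 (adjusted p = 0.222). Spry1 was high, at 7.12, 7.31 and 7.39 against 7.07, 7.07 and 7.02, with AICAR replicate 1 nearest to the forskolin arrays (0.22, SE 0.07, 95% confidence interval 0.06 to 0.38, adjusted p = 0.114). Spry4 was divided within the AICAR group, at 6.62, 6.99 and 7.04 against 6.75, 6.66 and 6.63 with forskolin alone. AICAR replicate 1 was the lowest of these 6 values and the other AICAR arrays the highest (0.21, SE 0.10, 95% confidence interval -0.02 to 0.43, adjusted p = 0.237). Without AICAR replicate 1 both genes were called higher, at 0.29 for Spry1 (adjusted p = 0.017) and 0.34 for Spry4 (adjusted p = 0.00794). In that fit 3324 of all 19938 genes were called, 1677 of them higher, against 1017 and 195 with all arrays. Without AICAR replicate 3 they were at 0.16 for Spry1 (adjusted p = 0.288) and 0.13 for Spry4 (adjusted p = 0.546).

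Spred1 and Spred3 showed little difference. Spred1 had 9.76, 9.62 and 9.72 with AICAR and 9.70, 9.71 and 9.76 with forskolin alone (-0.02, SE 0.04, 95% confidence interval -0.12 to 0.07). Spred3 had 7.23, 7.10 and 7.18 with AICAR and 7.19, 7.11 and 7.07 with forskolin alone (0.04, SE 0.07, 95% confidence interval -0.11 to 0.20). Across the 6 members the intervals reached at most 1.35-fold higher, for Spry4, and 0.713 of the forskolin level, for Spred2. The difference in response between members was measured as the change of the within-array gap between their log2 values. The gap between Spry1 and Spry2 changed by 0.39 (SD 0.15 with AICAR and 0.13 with forskolin alone, n = 3 each) and that between Spry1 and Spred2 by 0.52 (SD 0.19 and 0.22). Each had an exact two-sided permutation p of 0.1, the smallest that 3 arrays against 3 allow, and 0.214 after Benjamini-Hochberg adjustment over the 15 pairs of members.

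Set against control, the cells given forskolin with AICAR had 1 member called, Spry1, where 8.72% of all genes were called (3.04% higher and 5.68% lower). Spry1, Spry2, Spry4 and Spred1 had an unadjusted p under 0.05, as had 31.1% of all genes, and Spry1, Spry2, Spred1 and Spred2 did not overlap between the groups, as in 29.5%. Higher without overlap, as Spry1, were 15.2% of all genes. Spry1 had 7.12, 7.31 and 7.39 with AICAR, against 6.91, 7.07 and 6.91 in control, a log2 difference of 0.31 (SE 0.07, adjusted p = 0.0298), or 1.24-fold. Its order was AICAR with forskolin, then forskolin, then control, and its forskolin and control arrays overlapped. The call was lost without control replicate 1 or 3 (adjusted p = 0.082 and 0.114), without forskolin replicate 1 or 2 (0.0526 and 0.0541) and without AICAR replicate 2 or 3 (0.104 and 0.0819), with differences of 0.25 to 0.31. Without AICAR replicate 1 it was 0.38 (adjusted p = 0.00513). Spry4 followed at 0.24 (SE 0.10, adjusted p = 0.140). With single arrays left out it ran from 0.16 to 0.37 (adjusted p up to 0.366). Of these 9 fits, only that without AICAR replicate 1 called it (0.37, adjusted p = 0.00438). Without that replicate 4741 genes were called in this comparison, against 1739 with all arrays. This comparison shares its AICAR arrays with the one before, and its control arrays with the forskolin comparison.

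Below control lay Spry2 at -0.14 (SE 0.05, adjusted p = 0.114; -0.07 with quantile normalization), Spred1 at -0.15 (SE 0.04, adjusted p = 0.0636) and Spred2 at -0.15 (SE 0.08, adjusted p = 0.228), each with all 3 AICAR arrays under all 3 controls, as in 14.3% of all genes. Spred1 was called without AICAR replicate 1 (-0.17, adjusted p = 0.023), in the fit that called 4741 genes in all. Leaving out the other arrays in turn gave no call for Spred1, with differences reaching -0.11 and adjusted p up to 0.173. The second probe of Spred2 differed by -0.26 (SE 0.06) and was called (adjusted p = 0.0427 over all probes). Spred3 was at 0.11 (SE 0.07, adjusted p = 0.313), and at 0.03 without control replicate 3. Spry3 was 1.36-fold lower than control (-0.44, SE 0.08, adjusted p = 0.0123), a call lost without control replicate 2 or 3 (adjusted p = 0.0516 and 0.052), without moderation (0.0675) and in a fit of the 2 groups alone (0.0525).

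The direction of the members with AICAR went with the level of their probes. Spry4, Spry1 and Spred3, with means over the 9 arrays between 6.5 and 7.5, were higher than control, and Spry2, Spred1 and Spred2, with means above 8.5, were lower. All genes showed the same tilt. In the comparison with control, the median log2 difference was 0.126 for the 1824 genes with means of 6.5 to 7.0 and 0.097 for the 1466 genes from 7.0 to 7.5. It was -0.065 for the 1422 genes from 8.5 to 9.0, -0.039 from 9.5 to 10.0 and -0.03 from 10.0 to 10.5. Spry4 (0.24) lay under the 90th percentile of genes in its range (0.25) and Spry1 (0.31) above that of its own (0.254). Spry2 (-0.14) lay inside the 10th percentile of its range (-0.279), as did Spred1 (-0.15 against -0.199) and Spred2 (-0.15 against -0.163). In the comparison with forskolin alone, Spred2 (-0.30) lay below the 10th percentile of its range (-0.152), as did Spry3 (-0.67 against -0.219, from 9.0 to 9.5). Spry1 (0.22) and Spry4 (0.21) lay close to the 90th percentiles of their ranges (0.219 and 0.216), and Spry2 (-0.17) inside the 10th percentile of its own (-0.263). With this trend removed from each array by loess, an analysis added after the data were seen, Spry1 was at 0.25 against control (adjusted p = 0.0298) and Spry4 at 0.16 (adjusted p = 0.236). Against forskolin alone the same analysis put Spred2 at -0.27 (adjusted p = 0.0583) and Spry3 at -0.64 (adjusted p = 0.00133). It put Spry1 at 0.18 (adjusted p = 0.104) and Spry4 at 0.15 (adjusted p = 0.289).

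**Figure D3:**
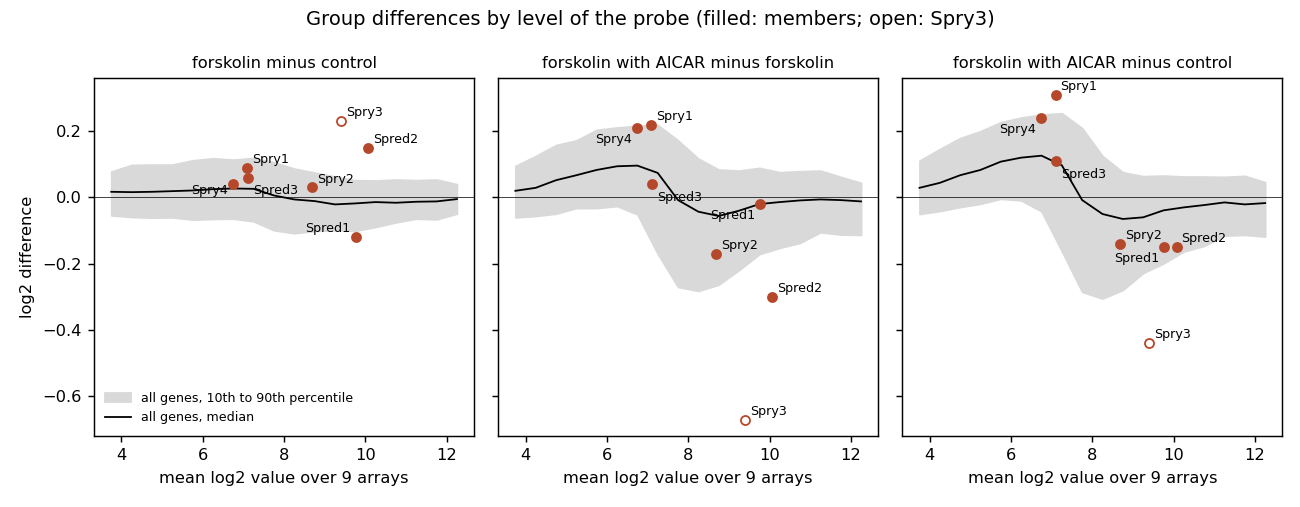
Log2 difference of each member (filled points) and of Spry3 (open points) against the gene's mean log2 value over the 9 arrays, in the 3 comparisons. The line is the median of all genes in steps of 0.5 and the band runs from their 10th to their 90th percentile; with AICAR the line lies above 0 for dim genes (0.126 at 6.5 to 7.0 against control) and below 0 for brighter ones (-0.065 at 8.5 to 9.0).

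The genes most like Spry1 were sought by Pearson's r over the 9 arrays among 1884 other genes called in at least 1 comparison. They were Uroc1 (r = 0.987), G6pc2 (r = 0.976) and C1ql2 (r = 0.974), which encode an enzyme of histidine breakdown, a glucose-6-phosphatase of pancreatic islets and a secreted C1q-like protein. The differences of these genes with AICAR against control were 0.25, 0.30 and 0.31, close to that of Spry1. Their AICAR means were log2 values of 6.73, 4.99 and 7.42, and whether these dim genes stood above background is unknown. Their calls, like that of Spry1, were lost without control replicate 1 or 3 or AICAR replicate 2 or 3, for Uroc1 also without any 1 forskolin array and for C1ql2 without forskolin replicate 1 or 2 (adjusted p up to 0.141, 0.109 and 0.146 for Uroc1, G6pc2 and C1ql2). For Spry3, looked up after its values were seen, the closest was the protease-like gene Prss35 (r = 0.982), which fell by 0.77 with AICAR against forskolin alone (adjusted p = 0.00122). The 9 points of each r share their arrays and fall into the study's groups.

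The rest of the cascade was described by gene lists. Beside them, limma called 0.692% of all genes with forskolin against control. It called 5.10% with AICAR against forskolin alone and 8.72% with AICAR against control. An unadjusted p under 0.05 was reached by 7.27%, 24.1% and 31.1% of all genes in these comparisons. A short list with no call for forskolin is therefore near the share of all genes. Among 16 measured genes whose products partner with Sprouty or Spred proteins, limma called none with forskolin against control (2 at an unadjusted p under 0.05) and none with AICAR against forskolin alone (1 at an unadjusted p under 0.05). Against control with AICAR it called the ubiquitin ligase gene Siah2, which targets Sprouty2 for degradation (0.21, adjusted p = 0.0444). Of 16 measured genes of the core cascade, none was called with forskolin (2 at an unadjusted p under 0.05). Ksr1, the scaffold that holds Raf, MEK and ERK together, fell with AICAR against forskolin alone (-0.22, SE 0.03, adjusted p = 0.00631) and against control (-0.13, adjusted p = 0.0464). The calls of Siah2 and Ksr1 against control were each lost without any 1 of 7 arrays (adjusted p up to 0.138 and 0.117): any control, forskolin replicate 1 or 2 or AICAR replicate 3, and also AICAR replicate 1 for Siah2 and AICAR replicate 2 for Ksr1.

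Of 20 measured receptor genes none was called with forskolin in limma (1 at an unadjusted p under 0.05, the insulin-like growth factor receptor Igf1r, 0.18, adjusted p = 0.311). With AICAR against forskolin alone the insulin receptor gene Insr fell (-0.21, adjusted p = 0.0409), and against control Pdgfrb rose (0.23, adjusted p = 0.0289). The call of Insr was lost without any 1 array but AICAR replicate 1 (adjusted p up to 0.136). That of Pdgfrb was lost without any 1 control, forskolin replicate 2 or AICAR replicate 2 or 3 (up to 0.111). Of 20 ligand genes only Pdgfb, a platelet-derived growth factor chain, rose with forskolin (0.52, SE 0.05, adjusted p = 0.000653). With AICAR against forskolin alone 2 rose and 2 fell. Pdgfb fell to a mean of 8.24 ± 0.05 with AICAR, against 8.96 ± 0.08 with forskolin alone (SD, n = 3; -0.71, SE 0.05, adjusted p = 7.82e-05), and Fgf18 fell by 0.46 (adjusted p = 0.00534). The angiogenic factor gene Vegfa rose by 0.28 (adjusted p = 0.00519). Fgf1 rose by 0.28 (adjusted p = 0.048), a call lost without any 1 array but AICAR replicate 1 (adjusted p up to 0.152).

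Of 18 other feedback inhibitors of the cascade 4 rose and none fell with forskolin, all of them phosphatases of MAP kinases. Dusp16, whose product acts mainly on the stress kinase JNK, reached 10.88 ± 0.04, against 9.98 ± 0.04 in control (SD, n = 3; 0.90, SE 0.05, adjusted p = 1.21e-05). Dusp1 rose by 0.64, Dusp5 by 0.58 and Dusp4 by 0.53, the last losing its call (adjusted p up to 0.0599) once control replicate 1 or 3 was removed. With AICAR against forskolin alone 5 of the 18 fell and none rose. Dusp1 fell to 10.47 ± 0.09, against 11.30 ± 0.03 with forskolin alone (-0.83, SE 0.05, adjusted p = 7.52e-05), and Errfi1, an inhibitor of the EGF receptor, fell by 0.57 (SE 0.04, adjusted p = 0.000209). Rasa2, a Ras GTPase-activating protein gene, fell by 0.40 (adjusted p = 0.0103), not without forskolin replicate 3 (adjusted p = 0.0528). Dusp5 fell by 0.29 and Dusp16 by 0.25, both not called without forskolin replicate 3 or AICAR replicate 2 (adjusted p up to 0.0541 and 0.0539). The list's median was 0.06 with forskolin and -0.05 with AICAR, against 0.00 and 0.02 over all genes. Compared with control, 4 of the 18 were called higher with AICAR and 3 lower, against 3.04% and 5.68% of all genes. Dusp16 was at 0.65 (adjusted p = 0.000106), Dusp4 at 0.39 (0.0115) and Errfi1 at -0.68 (7.46e-05) in limma. Dusp4 lost this call without control replicate 3 (adjusted p = 0.0532).

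Genes known as targets of ERK went both ways. Of 20 measured, 3 rose with forskolin, Fos (0.74, SE 0.09, adjusted p = 0.00387), Dusp4 and Egr1 (0.50, adjusted p = 0.0234). With AICAR against forskolin alone 2 rose and 1 fell. Fos reached 9.05 ± 0.15 with AICAR, against 7.80 ± 0.08 with forskolin alone (SD, n = 3; 1.25, SE 0.09, adjusted p = 0.000104). Egr1 rose by 0.40 (adjusted p = 0.0218) and Ier2 fell by 0.32 (adjusted p = 0.0342). Egr1 lost its forskolin call when control replicate 1 or 3 or any 1 of the 3 forskolin arrays was removed (adjusted p up to 0.121), and its call with AICAR when AICAR replicate 3 or any 1 of the 3 forskolin arrays was removed (up to 0.086). Ier2 lost its call without control replicate 1 or 2, forskolin replicate 2 or 3 or AICAR replicate 3 (up to 0.118). The list's median was 0.07 with forskolin and -0.01 with AICAR. Dusp4 is also in the list of other feedback inhibitors, and Dusp1 is both in that list and among the cAMP target genes, so the lists are not independent.

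**Figure D4:**
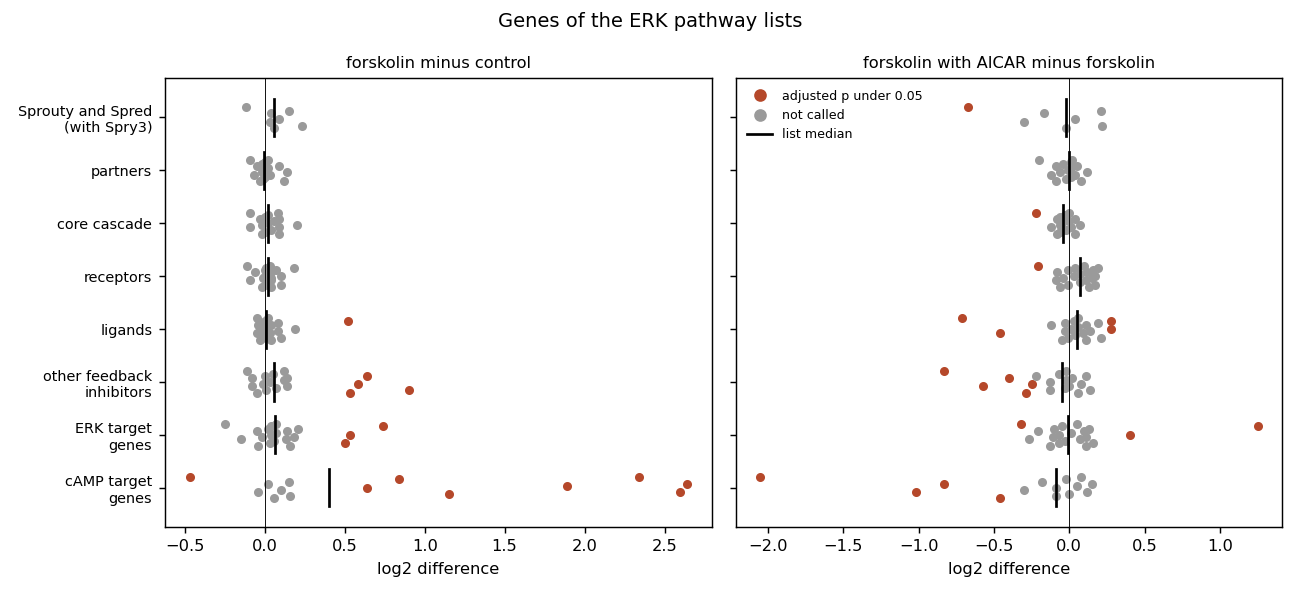
Log2 differences of single genes (points) by list, for forskolin minus control on the left and forskolin with AICAR minus forskolin on the right, with the list median as a bar. The medians of the lists other than the cAMP targets (0.40 on the left) lie within 0.1 of 0, and the called Sprouty gene on the right is Spry3 at -0.67.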

How the data were processed

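Total RNA of 9 MA-10 samples was labelled with an Affymetrix whole-transcript kit, per the labels' protocols. The deposited table holds log2 values for 35557 probes (transcript clusters), made by the authors with RMA and Partek per the submitters' processing notes, without settings; RMA shares 1 distribution among arrays, which can hide shifts common to all genes. The genome build of the array annotation is not given in the sources used here. Of the probes 21789 carried 1 gene symbol in the platform annotation, 1621 several and 12147 none listed; 19938 genes remained, by the brightest probe of a gene, with no filter on dim probes. No column of another series was present.

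All 9 arrays entered 1 linear model by group in limma 3.58.1 (R 4.3.3), two-sided, with Benjamini-Hochberg adjustment over all genes; genes at an adjusted p under 0.05 were called. Log2 differences are the first group minus the second, with SE. The fit was also run on simulated data with errors drawn separately for each gene and array. That run does not cover variation shared among genes, such as the component described above. Exact permutation tests and figures used Python 3.11.15, scipy 1.17.1 and matplotlib 3.10.9. Precision is limited by having 3 arrays a group.

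The members and gene lists were chosen with earlier results of these data known. Named were all members and Spry3, up to 3 called genes per list and comparison with the largest difference (with none called, the smallest p), and the 3 genes most correlated with a called member; predicted transcripts were left out. The gap tests, Prss35, Sox9, Cd68 and, in lists with more calls than 3, Dusp4, Dusp5 and Dusp16 were named after their values were seen. The settings varied were the replicate number as a block, a minimum mean log2 of 5 or 6, quantile normalization, median centring, other priors, fits of 2 groups, array weights, other probe rules, other thresholds, and each array left out; loess between arrays was added after the data were seen.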

Additional observations from a re-analysis of the deposited data

How the results depend on the processing

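With forskolin against control no member was called under any of the 24 alternatives, and 138 genes in all became 83 with the replicate block, 72 without moderation, 436 with array weights, 72 at an adjusted p under 0.01 and 33 at 1.5-fold or more, and 76 to 144 with single arrays left out. With AICAR against forskolin, 1017 genes became 583 with the replicate block, 544 without moderation, 496 in a fit of the 2 groups, 5729 with array weights, 409 and 1820 at adjusted p under 0.01 and 0.1, 132 at 1.5-fold or more, and 487 (without forskolin replicate 3) to 3324 (without AICAR replicate 1) with single arrays left out. In that comparison 1 member, Spred2, was called with the trended and robust prior, with the mean of probes, through its other probe and at an adjusted p under 0.1, and 4 (Spry1, Spry2, Spry4 and Spred2) with array weights; leaving out single arrays gave 0 to 3. With AICAR against control, 1739 genes became 874 with the replicate block, 735 without moderation, 758 in a fit of the 2 groups, 6619 with array weights, 502 and 3756 at adjusted p under 0.01 and 0.1, 137 at 1.5-fold or more, and 660 (without control replicate 3) to 4741 (without AICAR replicate 1) with single arrays left out. Here the 1 member called, Spry1, became 0 with the replicate block (adjusted p = 0.0523), without moderation, in a fit of the 2 groups, at an adjusted p under 0.01 and at 1.5-fold or more. The count was 2 with the filter at 6, the trended and robust prior and an adjusted p under 0.1 (Spry1 and Spred1) and when every probe was tested (Spry1 and Spred2), 4 with array weights (Spry1, Spry2, Spry4 and Spred1), and 0 to 3 with single arrays left out. The causes were not tested.

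The labels do not say whether replicate numbers pair the samples. Same-numbered arrays of the forskolin and control groups had deviations from their group means correlated at 0.244, 0.0126 and 0.329. Those of the AICAR and forskolin groups were at -0.406, 0.0827 and -0.337, and those of the AICAR and control groups at -0.368, 0.0125 and -0.400. The highest values were between different numbers, 0.491 for AICAR replicate 1 with control replicate 3 and 0.454 with forskolin replicate 3. Pairing was not tested. With array weights Spred2 differed by -0.19 between AICAR and forskolin, and Spred3 by 0.03 between AICAR and control. The signs of Spry1, Spry2, Spry4 and Spred2 with AICAR against forskolin were kept under all 24 alternatives. No difference that was called, in the main analysis or under an alternative, changed sign, while uncalled differences near 0 of Spry2 and Spred3 with forskolin, and of Spred1 and Spred3 with AICAR against forskolin, did so in 1 to 3 alternatives each. Of the values of other named genes, 1878 kept their side of the threshold, 246 lost a call and 30 gained one. Probe levels over background are unknown for the dim Spry4, Spry1 and Spred3.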
